A study of Glycine max with 12 samples.

Results

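Seeds of a soybean (Glycine max) line overexpressing GmZF392 were compared with seeds of the wild type, the cultivar Jack, across every gene with enough counts to test. The comparison used 6 of the 12 RNA-seq libraries of the study, 3 of each genotype, and 34252 of the 47095 genes in the table. The other 6 libraries came from overexpressors of GmZF351 and of GmNFYA, 3 each. They are used here only to show where the GmZF392 overexpressor differed from them and where it did not. All seeds were taken at one stage, which the labels call H3 without saying what it stands for, and the labels do not name the promoter of the transgene. A single code in the titles covers the 3 GmZF392 libraries, which could be 1 transgenic line, and effects of such a line and of the transgene cannot be told apart. Separate plants are not stated for the libraries of a genotype, and the p-values below therefore reflect how these libraries vary, possibly for technical reasons only. In seed RNA, more cells of a type and more RNA per cell cannot be told apart.

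GmZF392 belongs to the CCCH zinc finger proteins, of which plants have tandem forms that act in the nucleus on transcription. In a filling soybean seed the embryo makes storage globulins, the 11S glycinins and the 7S conglycinins, together with oil that is packed into oil bodies coated by oleosins. The seed coat around it makes flavonoids and proanthocyanidins. Storage genes are switched on during filling, under regulators such as LEC1, ABI3 and ABI5.

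The libraries held 17809547 to 22652420 counted fragments over the 12, and 38267 to 39478 genes had a count. Values are CPM, the count of a gene scaled to a common library size, given in order of library 1 to 3. A gene was said to rise or fall when edgeR's quasi-likelihood test gave an adjusted p (Benjamini-Hochberg over all genes tested) under 0.05. Embryo markers were present, with 15 of the 16 listed for the tissue tested and none of them under 1 CPM on average in the wild type. Their summed level was 4869 to 6791 CPM in the wild-type libraries and 11660 to 13198 CPM in the GmZF392 libraries. For 4 seed coat markers the sums were 4195 to 6113 and 4040 to 5155 CPM, and for 3 leaf genes 1643 to 2022 and 1267 to 1682 CPM. None of the 5 nodule markers had enough counts to test. The shares of embryo and seed coat in the samples were not measured, and their part in the results was not tested.

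GmZF392 itself (Glyma.12G205700, chromosome 12, 38059961 to 38061812, plus strand) was counted at 72, 70.7 and 68.3 CPM in wild-type libraries and at 666, 734 and 545 CPM in its own overexpressor. Every overexpressor library stood far above every wild-type library, as the label says. The fitted rise was 9.21-fold (log2 3.20, SE 0.17, adjusted p = 2.4e-07). Counts do not separate the transgene from the native gene. The locus was assigned from knowledge of the study, as were those of GmZF351 and GmNFYA, since the tables used here do not describe them as such. GmZF351 (Glyma.06G290100), the other zinc finger gene, was counted at 20.5, 17.9 and 17.6 CPM in wild-type seeds and at 38.3, 39.3 and 42 CPM in the GmZF392 overexpressor. It rose 2.13-fold (log2 1.09, SE 0.14, adjusted p = 4.3e-04), with no overlap of libraries, which held for every gene that passed. Its neighbour on chromosome 6, Glyma.06G290000, also rose, from 4.91, 10.3 and 8.99 to 22.9, 18.6 and 20.8 CPM (log2 1.36, SE 0.22, adjusted p = 0.00329). That neighbour was chosen after its values were seen. GmNFYA (Glyma.02G303800), a subunit gene of the CCAAT-binding NF-Y complex, was at 41.8 ± 1.41 CPM (SD, n = 3) in the wild type and 45.6 ± 3.57 CPM in the GmZF392 overexpressor, which did not pass (edgeR, adjusted p = 0.789).

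Against the wild type 752 genes passed, 2.20% of those tested. More rose than fell, with 571 genes higher (1.67%) and 181 lower (0.528%). Among the 1691 tested genes with a symbol, from which the gene lists below were drawn, 74 rose (4.38%) and 21 fell (1.24%). These shares are the ones to set beside the list counts below. The change was at least 2-fold for 511 genes (1.49%). Libraries of the genotypes did not overlap for 6120 genes (17.9%), which include all 752. The median log2 fold change over all tested genes was -0.01. Genes that rose had a median level of 4.89 CPM in the wild type and 11.9 CPM in the overexpressor, and 134 of them were under 1 CPM in the wild type. Over all tested genes the median was 11.8 CPM in both genotypes, and 3310 genes were under 1 CPM in the wild type. Genes that fell had a median of 13.9 CPM in wild-type seeds and 5.51 CPM in the overexpressor, where 46 were under 1 CPM. Without wild-type library 2 or 3 the count was 448 or 477, all genes together. Of the 752 genes, 441 and 463 were called again in the same direction in those fits.

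**Figure D1:**
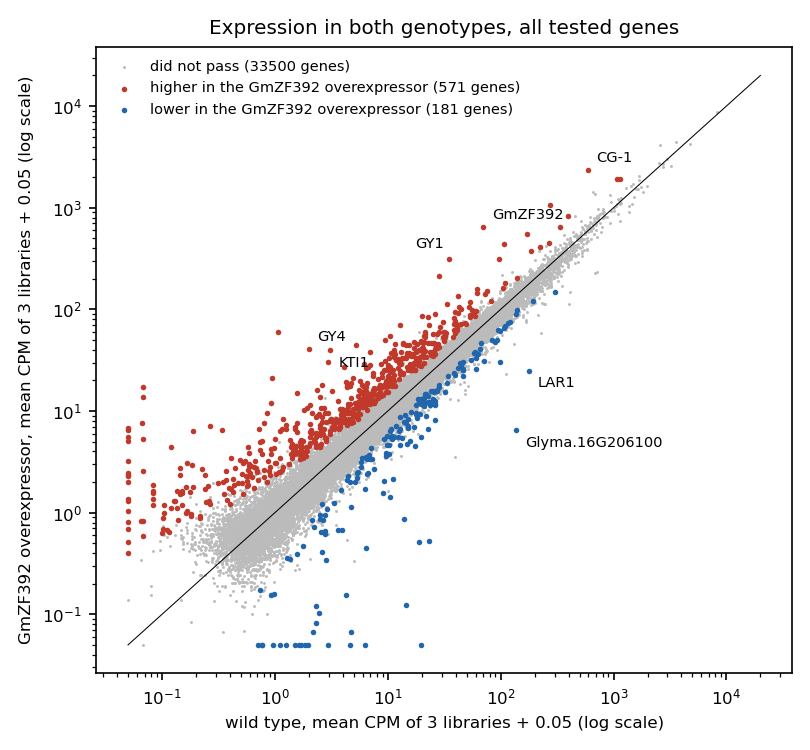
Mean CPM of the 3 wild-type libraries (horizontal, log scale) against the mean of the 3 GmZF392 overexpressor libraries (vertical, log scale) for each of the 34252 tested genes, with a small constant added so that genes at 0 can be drawn. The 571 genes that rose and the 181 that fell are coloured, and the columns of points at the left and along the bottom edge are genes near 0 in one genotype.

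Among the genes with a symbol, 11S storage globulin genes had some of the highest folds. Of 6 tested 11S globulin genes, 4 rose and none fell, with a median log2 fold change of 2.94 against -0.01 over all tested genes. GY4 (Glyma.10G037100), for a glycinin subunit, was counted at 2.26, 2.13 and 1.43 CPM in wild-type seeds and at 39.1, 49 and 33.8 CPM in the overexpressor. Its rise of 20.8-fold (log2 4.38, SE 0.21, adjusted p = 9.4e-08) was the highest of the list. GY1 and GY2 are neighbours on chromosome 3 (38993379 to 39001774) that encode close glycinin subunits, so their counts depend on how uniquely fragments aligned. GY1 was at 27.7, 35 and 41.2 CPM in wild-type seeds and at 337, 371 and 233 CPM in the overexpressor, 9.07-fold higher (adjusted p = 1.5e-05). GY2 was at 25.5, 29.5 and 29.2 against 213, 231 and 190 CPM, 7.53-fold higher (adjusted p = 4.6e-07). GY3, a scarce member, moved from 0.294, 0.227 and 0.441 to 2.33, 3.18 and 2.08 CPM, 7.86-fold higher (adjusted p = 7.9e-04). In all 4 of these genes the lowest overexpressor library was several times the highest wild-type library. A1 and GY7 did not pass. A1 was at 283, 217 and 156 CPM in wild-type seeds and 309, 326 and 486 CPM in the overexpressor (edgeR, adjusted p = 0.193), and GY7 at 4.01 ± 0.225 and 3.13 ± 0.438 CPM (SD, n = 3, edgeR adjusted p = 0.541). Levels per kilobase of exon show how unevenly the 4 genes that rose were expressed. A1, counted above each of them in every wild-type library, is not placed on this scale. In CPM per kilobase, GY1 and GY2 stood at 16.3 and 15.7 in the wild type and at 147 and 118 in the overexpressor. On the same scale GY4 stood at 0.934 and 19.6, and GY3 at 0.151 and 1.19.

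The 7S globulin gene CG-1 (Glyma.10G246300), for a conglycinin subunit, was at 581, 574 and 619 CPM in wild-type seeds and at 2381, 2422 and 2210 CPM in the overexpressor. It rose 3.95-fold (log2 1.98, SE 0.14, adjusted p = 2.2e-06) and, at 1081 CPM per kilobase, was the most expressed globulin gene that rose. CG-3, the other 7S gene tested, varied within each genotype, at 199, 114 and 63.9 CPM in wild-type seeds and 163, 188 and 344 CPM in the overexpressor, and did not pass (edgeR, adjusted p = 0.347). The next tested gene along chromosome 10, Glyma.10G246500, has no symbol. It rose from 1.18, 2.27 and 2.59 to 7.78, 8.64 and 5.57 CPM (log2 1.87, SE 0.27, adjusted p = 0.00144) and was chosen after its values were seen.

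Other seed proteins of the embryo moved the same way in part. Of 8 tested genes for protease inhibitors, lectin and P34, 3 rose and none fell (median log2 0.76), where 4.38% of tested genes with a symbol rose. KTI1 (Glyma.01G095000), a Kunitz trypsin inhibitor gene, was at 2.7, 2.36 and 4.03 CPM in wild-type seeds and at 34.3, 33.6 and 50.4 CPM in the overexpressor, 13.1-fold higher (log2 3.71, SE 0.25, adjusted p = 2.2e-06). The abundant Kunitz gene KTI3 was at 2317, 2934 and 2469 against 3594, 3607 and 5197 CPM and did not pass (edgeR, adjusted p = 0.133), although its libraries did not overlap. Seed lectin LE1 (Glyma.02G012600) was at 386, 412 and 381 against 825, 825 and 847 CPM, 2.12-fold higher (adjusted p = 0.00146). P34 (Glyma.08G116300), the gene of a major soybean allergen, was at 84.3, 99.6 and 103 against 306, 292 and 350 CPM, 3.3-fold higher (adjusted p = 3.5e-05). Glyma.10G028300 has no RefSeq symbol but carries the synonym sbp, a sucrose-binding protein. It was at 176, 167 and 168 against 534, 558 and 575 CPM, a rise of 3.27-fold with very little spread (log2 1.71, SE 0.13, adjusted p = 6.5e-06). With exon-length offsets 6 of the 8 genes of the inhibitor, lectin and P34 list rose, and with DESeq2 5 did.

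Lipoxygenases oxidise polyunsaturated fatty acids, and dry soybean seed holds several of them. Of 8 tested lipoxygenase genes 3 rose and none fell (median log2 0.11), where 4.38% of tested genes with a symbol rose. LOX2 (Glyma.13G347500) was at 13.4, 12.2 and 12.4 CPM in wild-type seeds and at 79.7, 79.3 and 52.6 CPM in the overexpressor, 5.57-fold higher (adjusted p = 1.5e-05). LOX1.1 lies next to it on chromosome 13 and moved from 3.24, 2.94 and 2.87 to 6.64, 10.3 and 7.27 CPM, 2.67-fold higher (adjusted p = 0.00353). LOX3, on chromosome 15, moved from 37.6, 31.3 and 31.6 to 118, 116 and 106 CPM, 3.39-fold higher (adjusted p = 9.1e-06). The remaining 5 did not pass. LOX9, the most counted member, was at 1612, 1459 and 1442 CPM in wild-type seeds and 1426, 1231 and 1169 CPM in the overexpressor (log2 -0.24, adjusted p = 0.568 by edgeR). LOX7 was at 86.6, 94.5 and 96.2 against 80.7, 73 and 57.9 CPM (log2 -0.39, adjusted p = 0.263 by edgeR). Summed over the list, lipoxygenase genes stood at 1674 to 1845 CPM in the wild type and 1469 to 1800 CPM in the overexpressor, so the ranges overlapped.

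**Figure D2:**
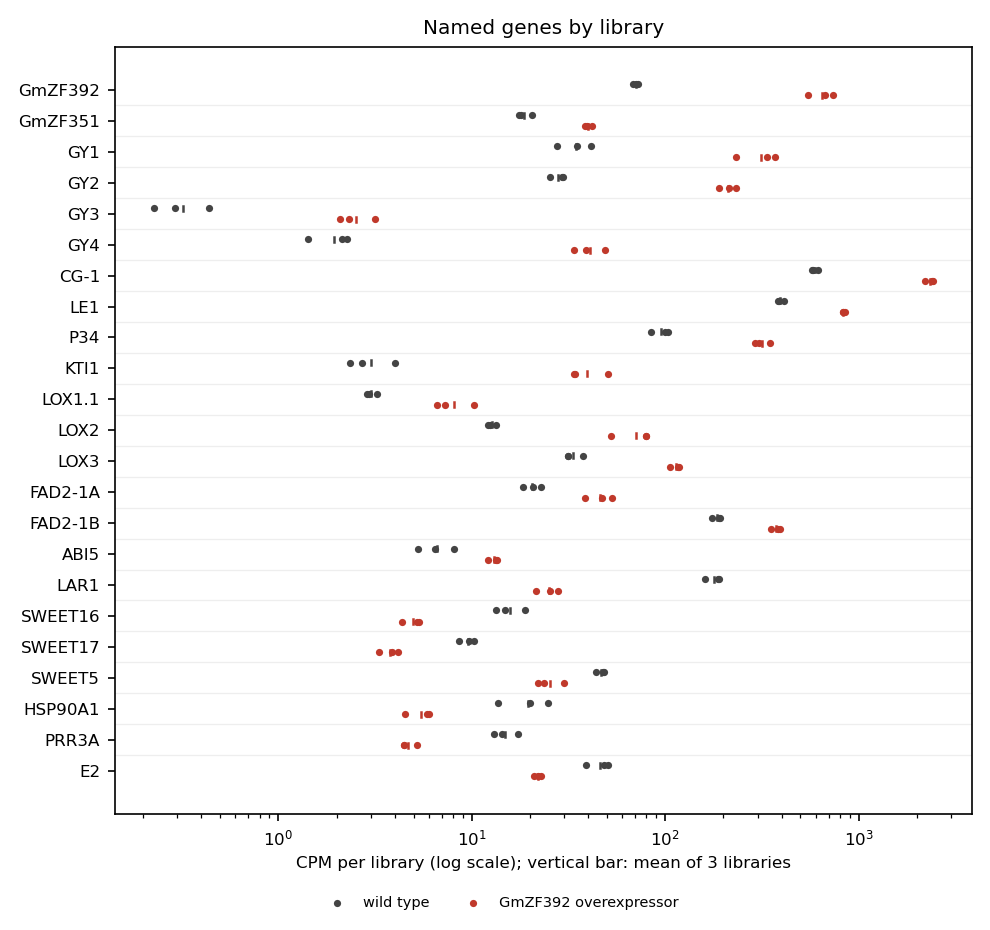
CPM in each library (points, log scale) for named genes of known function in the wild type and the GmZF392 overexpressor, with a vertical bar at the mean of 3 libraries. Storage protein genes lie to the right of the wild type by up to 20.8-fold for GY4, and LAR1 lies to the left by 7.2-fold.

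Fatty acid synthesis genes held no call. None of the 14 tested fatty acid synthesis genes passed by edgeR or by DESeq2, none had an unadjusted p under 0.05, and their fitted log2 changes ran from -0.19 to 0.33. The acyl carrier protein desaturase gene SACPD-C was at 119, 214 and 232 CPM in wild-type seeds and 262, 216 and 232 CPM in the overexpressor (edgeR, adjusted p = 0.701). Of 17 tested desaturase genes 2 were higher, both of them for oleate desaturation, and none lower, where 4.38% of tested genes with a symbol rose. FAD2-1B (Glyma.20G111000), which encodes the seed enzyme that turns oleate into linoleate, was at 174, 190 and 192 against 354, 391 and 382 CPM, 2.03-fold higher (log2 1.02, SE 0.13, adjusted p = 6.7e-04). Its partner FAD2-1A (Glyma.10G278000) was at 22.7, 18.3 and 20.7 against 46.9, 53 and 38.6 CPM, 2.24-fold higher (log2 1.17, SE 0.16, adjusted p = 9.2e-04). On the per-kilobase scale FAD2-1B stood at 205 CPM and FAD2-1A at 24.4 CPM in the overexpressor. None of 5 tested genes of oil assembly and oil bodies passed by edgeR, although 4 were higher at an unadjusted p under 0.05 and 2 by DESeq2. Their summed level was 695 to 1743 CPM in the wild type and 2695 to 2889 CPM in the overexpressor. Among them the oleosin gene P91 was at 345, 869 and 825 CPM in wild-type seeds and at 1339, 1263 and 1484 CPM in the overexpressor (edgeR, adjusted p = 0.172). P89, the other oleosin gene, was at 316, 846 and 811 against 1492, 1387 and 1362 CPM (edgeR, adjusted p = 0.0908). Wild-type library 1 stood apart in both oleosin genes, well below the other wild-type libraries, and neither gene overlapped between genotypes. Both genes passed with exon-length offsets and with DESeq2. Outside the list, Glyma.13G118300, whose RefSeq synonym is DGAT3-1, a diacylglycerol acyltransferase, rose from 8.09, 5.48 and 7.28 to 12.1, 11.3 and 14.4 CPM (log2 0.86, SE 0.18, adjusted p = 0.0232). It was chosen after its values were seen.

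Regulators of embryo development stayed close to their wild-type level. Of 9 tested, only ABI5 passed, by rising, where 4.38% of tested genes with a symbol rose. LEC1-B was at 308, 349 and 329 against 360, 348 and 377 CPM (log2 0.14, adjusted p = 0.751 by edgeR), and LEC1-A at 186 ± 29.5 against 188 ± 20.2 CPM (SD, n = 3). WRI1A, for a regulator of oil synthesis genes, was at 58.2, 55.5 and 53 against 51, 48.3 and 51.5 CPM (log2 -0.14, adjusted p = 0.677 by edgeR). ABI5, a bZIP factor of abscisic acid response, was at 5.3, 6.48 and 8.11 against 12.2, 13.5 and 13.3 CPM (log2 0.97, SE 0.20, adjusted p = 0.019). That call ended without overexpressor library 1 (0.0522), 2 (0.0746) or 3 (0.0543) and without wild-type library 1 (0.0863) or 2 (0.0921), and the adjusted p was 5.8e-04 at its lowest, by DESeq2. The 23 tested late embryogenesis genes, whose proteins protect drying tissue, held no call by edgeR, 7 of them being higher at an unadjusted p under 0.05 and 2 by DESeq2, with a median log2 of 0.36 and a range from -0.39 to 1.77. With exon-length offsets 5 of them passed, and without overexpressor library 3 1 did. None of 24 NF-Y subunit genes passed by edgeR or DESeq2, none had an unadjusted p under 0.05, and their log2 changes ran from -0.33 to 0.21.

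Transcription factor families with a symbol gave several low-level genes that rose. Of 19 tested NAC genes, a plant family named for NAM, ATAF and CUC, 6 rose and none fell, where 1.67% of all tested genes and 4.38% of those with a symbol rose. The family's median log2 change was 0.65, and 8 members rose by DESeq2. NAC27 moved from 0.883, 2.17 and 1.49 to 8.67, 7.21 and 6.72 CPM (log2 2.30, SE 0.30, adjusted p = 5.4e-04). NAC018 moved from 1.28, 1.18 and 1.49 to 6.09, 4.08 and 5.3 CPM (log2 1.97, SE 0.26, adjusted p = 6.2e-04). NAC2, the most even of them, moved from 21.1, 19.8 and 20.4 to 35.6, 44.4 and 45.2 CPM (log2 1.03, SE 0.12, adjusted p = 3.4e-04). The other NAC calls were less firm. NAC3 (log2 2.18, adjusted p = 0.0104) lost its call without overexpressor library 2 (0.0524) or wild-type library 1 (0.0581) or 3 (0.0636), with 5.3e-04 its lowest value over the alternatives. NAC19 (log2 0.83, adjusted p = 0.00781) lost it without wild-type library 2 (0.058) or 3 (0.0513), with 4.8e-05 its lowest. NAC021 (log2 0.73, adjusted p = 0.0397) lost it without overexpressor library 1 (0.156) or 2 (0.172) and without wild-type library 1 (0.142), 2 (0.169) or 3 (0.0654), with 0.00169 its lowest. Without wild-type library 3 the count of NAC genes that rose was 3.

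Of 39 tested WRKY genes, a family known for roles in defence, 4 rose and none fell (median log2 0.29). WRKY55 moved from 0.491, 0.362 and 0.331 to 3.27, 1.96 and 2.84 CPM (log2 2.75, SE 0.31, adjusted p = 2.0e-04). WRKY49 moved from 1.42, 1.68 and 1.49 to 5.3, 7.58 and 5.63 CPM (log2 2.0, SE 0.22, adjusted p = 1.5e-04). WRKY47 moved from 7.85, 10.9 and 12 to 18.2, 20.7 and 17.6 CPM (log2 0.88, adjusted p = 0.0089). Like every gene that passed, WRKY39 included, these 3 did not overlap between genotypes. WRKY55, WRKY49 and WRKY47 also rose in the GmZF351 and GmNFYA overexpressors against the same wild-type libraries (edgeR, adjusted p from 7.0e-05 to 0.0169). The call of WRKY39 (log2 1.99, adjusted p = 0.0342) ended without overexpressor library 1 (0.107) or 2 (0.121) or wild-type library 1 (0.0841) or 2 (0.149), with 5.3e-04 its lowest over the alternatives. Of 15 AP2/ERF genes 3 rose, among them DREB3 (75.8 ± 12 to 152 ± 8.78 CPM, SD, n = 3, edgeR adjusted p = 0.00578) and ERF6 (40 ± 3.94 to 72.5 ± 1.56 CPM, SD, n = 3, edgeR adjusted p = 0.00313). AP2-5 (log2 1.97, adjusted p = 0.0447) lost its call without overexpressor library 1 (0.188) or 2 (0.144) or wild-type library 1 (0.147) or 2 (0.212), with 0.00307 its lowest. Of 59 MYB genes 4 rose and 1 fell (median log2 0.07), shares near those of all genes with a symbol (4.38% and 1.24%), with MYB177 at 13, 11.6 and 12.9 against 28.4, 35.9 and 24 CPM (log2 1.24, SE 0.19, adjusted p = 0.00236) and MYB173 at 6.72, 6.39 and 6.12 against 13, 13.8 and 12.7 CPM (log2 1.04, adjusted p = 0.00353). The calls of MYB50 and MYB60, which rose, and MYB3A, which fell, all ended without overexpressor library 1 or 2 and without wild-type library 1 or 2, reaching adjusted p = 0.0699, 0.115 and 0.17 at most. The last 2 also ended without wild-type library 3, and MYB3A without overexpressor library 3. Of 82 tested genes with a symbol of the bZIP list 2 rose and none fell (median log2 -0.01). That share is not above the 4.38% of genes with a symbol that rose. STF-3 moved from 6.48, 7.29 and 5.68 to 16.6, 15.4 and 13.3 CPM (log2 1.22, SE 0.18, adjusted p = 0.0017). It is in the list by its symbol only. Its RefSeq synonym is SCOF-1, and whether it encodes a bZIP protein was not checked.

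**Figure D3:**
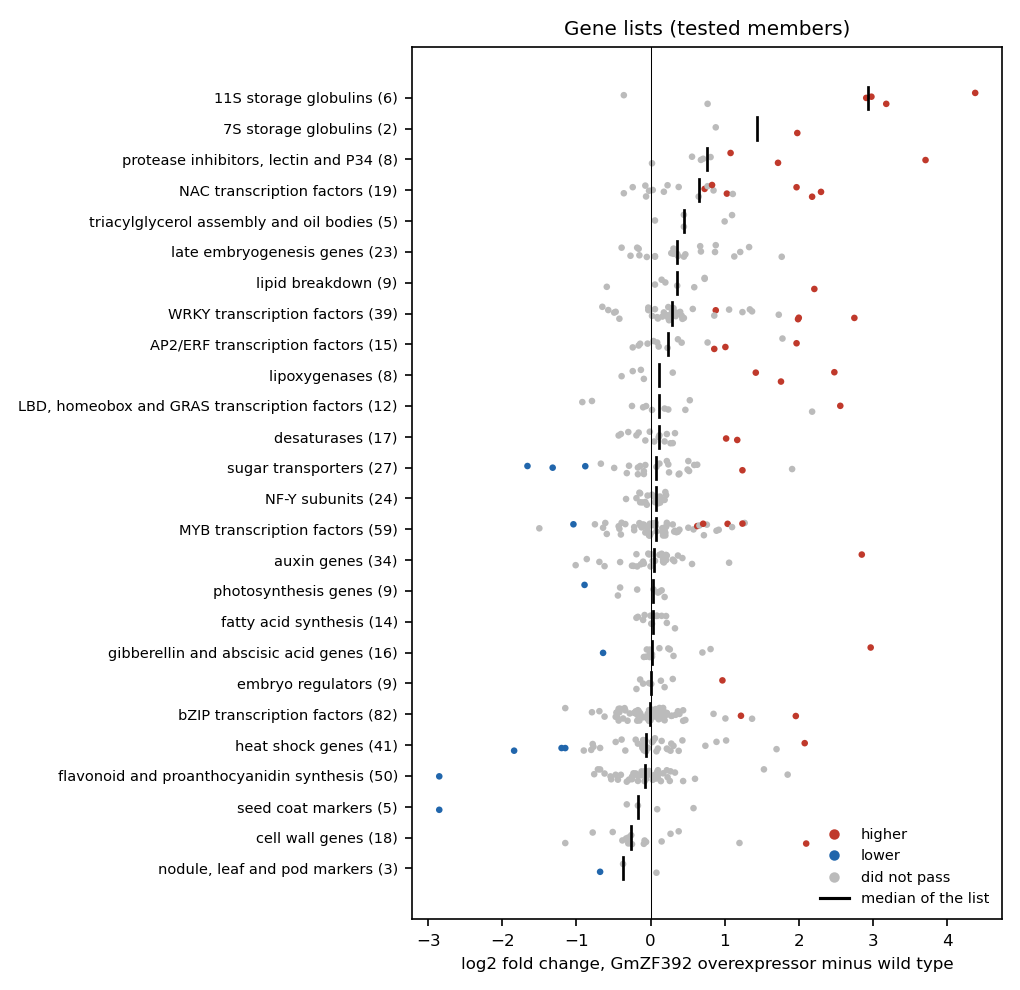
Log2 fold change, GmZF392 overexpressor minus wild type, of every tested member of the 26 gene lists (points), with a vertical line at each list's median and the number tested in brackets. The 11S globulins sit furthest to the right with a median of 2.94, and fatty acid synthesis genes lie within -0.19 to 0.33.

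Genes of the seed coat fell in one place. LAR1 (Glyma.20G185700, chromosome 20, 42390744 to 42393268, minus strand) encodes leucoanthocyanidin reductase, which makes catechin units of proanthocyanidins. It was at 188, 189 and 161 CPM in wild-type seeds and at 21.5, 25.5 and 27.8 CPM in the overexpressor, 7.2-fold lower (log2 -2.85, SE 0.15, adjusted p = 2.4e-07). LAR1 also fell in the GmZF351 and GmNFYA overexpressors, to 21.3 and 21.5 CPM (log2 -3.08 and -3.06, edgeR adjusted p = 1.4e-07 and 1.1e-07). Those comparisons share the wild-type libraries. The GmZF392 overexpressor did not differ from either (edgeR, adjusted p = 0.628 and 0.676). No other of the 50 tested flavonoid and proanthocyanidin genes passed by edgeR, while 2 were higher by DESeq2. At an unadjusted p under 0.05, 4 were higher and 6 lower, LAR1 included. ANR1, for the reductase that makes epicatechin, was at 446, 365 and 335 against 409, 378 and 436 CPM (edgeR, adjusted p = 0.867). SCB1, a seed coat gene of the BURP family, was at 3545, 5547 and 5274 against 4714, 3626 and 4418 CPM (edgeR, adjusted p = 0.833). Both overlapped between genotypes while LAR1 did not.

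The 10 genes with a symbol that fell by the highest fold also held PRR3A, PRR3B, E2 and ZPR1A, which belong to none of the lists. PRR3A, a pseudo-response regulator of the circadian clock, was at 14.4, 13 and 17.4 against 4.46, 5.19 and 4.48 CPM, 3.17-fold lower (adjusted p = 3.4e-04). PRR3B was at 25, 21.3 and 24.5 against 11.5, 14.1 and 8.14 CPM, 2.09-fold lower (adjusted p = 0.00821). E2, the soybean GIGANTEA maturity gene, was at 50.4, 39 and 48.3 against 22.1, 22.7 and 20.9 CPM, 2.1-fold lower (adjusted p = 0.00922). As for every gene that passed, no wild-type library of these 3 genes overlapped the overexpressor. Against the same libraries PRR3A, PRR3B and E2 also fell in the GmZF351 overexpressor (log2 -1.62, -0.85 and -1.37, edgeR adjusted p = 5.9e-04, 0.0376 and 0.0021). In the GmNFYA overexpressor none of them passed (edgeR, adjusted p = 0.129, 0.0821 and 0.0509). The labels do not give the hour at which seeds were taken. ZPR1A, whose name is that of the little zipper proteins, was at 9.86, 8.88 and 10.6 against 4.76, 4.45 and 4.59 CPM, 2.12-fold lower (adjusted p = 0.00251).

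Of 27 tested genes of the sugar transporter list 1 rose and 3 fell, the falling ones all SWEET genes, which carry sugars across membranes. SWEET16 and SWEET17 are neighbours on chromosome 6 (13885783 to 13902581). SWEET16 moved from 18.8, 14.9 and 13.4 to 5.2, 4.35 and 5.35 CPM (log2 -1.66, SE 0.17, adjusted p = 6.7e-05), and SWEET17 from 10.3, 8.61 and 9.66 to 4.16, 3.87 and 3.33 CPM (log2 -1.32, SE 0.18, adjusted p = 9.9e-04). SWEET5 moved from 43.8, 48 and 47.8 to 22.1, 23.7 and 29.9 CPM (log2 -0.88, SE 0.15, adjusted p = 0.00525). The gene of the list that rose, SBP2, has the RefSeq synonym SBP, for a sucrose-binding protein. SBP2 (log2 1.24, adjusted p = 0.0347) lost its call without overexpressor library 2 (0.0949) or 3 (0.131) or wild-type library 1 (0.0943) or 3 (0.145), with 0.00241 its lowest. Of 41 tested heat shock genes 1 rose and 3 fell, and the list's median log2 was -0.06, where 4.38% of genes with a symbol rose and 1.24% fell. HSP90A1, a chaperone gene, moved from 13.6, 24.7 and 20.1 to 5.85, 4.51 and 6.01 CPM (log2 -1.84, SE 0.30, adjusted p = 0.00353). Against the same wild-type libraries it also fell in the GmZF351 and GmNFYA overexpressors (log2 -3.01 and -2.88, edgeR adjusted p = 1.6e-04 and 2.0e-04). HSP23.9 moved from 53.1, 61.9 and 65.2 to 23.9, 22.6 and 31.7 CPM (log2 -1.20, SE 0.17, adjusted p = 0.00132). HSF-20, a heat shock factor gene, was the one that rose, from 0.638, 0.453 and 0.497 to 1.88, 3.18 and 1.69 CPM (log2 2.08, SE 0.31, adjusted p = 0.00199).

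The remaining lists are short, and their counts are to be read beside the 4.38% of tested genes with a symbol that rose and the 1.24% that fell. No test set them apart from those shares. Of 18 cell wall genes 1 rose, of 12 LBD, homeobox and GRAS genes 1 rose, and of 16 gibberellin and abscisic acid genes 1 rose and 1 fell. The gene that fell there was GID1C2, a gibberellin receptor gene (log2 -0.64, adjusted p = 0.0192), and it did not pass without overexpressor library 1 or 2 or any 1 wild-type library (adjusted p up to 0.109 and down to 8.9e-04 over the alternatives). MS, for malate synthase of the glyoxylate cycle, was the one gene of 9 in lipid breakdown that rose (log2 2.21, adjusted p = 0.0436), and it did not pass when any 1 of the 6 libraries was left out (up to 0.189, lowest 0.0083). Of 9 photosynthesis genes 1 fell, RCA11, a Rubisco activase gene (log2 -0.89, adjusted p = 0.0484), which lost its call in 10 of 14 alternatives. These included DESeq2 size factors (0.0501), upper-quartile factors (0.0584), no filter (0.0591), the 6 libraries alone (0.106), and the fits without overexpressor library 1 (0.199) or 2 (0.22) or wild-type library 1 (0.124), 2 (0.122) or 3 (0.164), while its lowest was 0.00835. VSPA, a vegetative storage protein gene of leaf and pod, was at 99 ± 2.98 CPM (SD, n = 3) in wild-type seeds and 55, 68.6 and 61.2 CPM in the overexpressor, below every wild-type library (edgeR, log2 -0.68, adjusted p = 0.0111). Its call ended without overexpressor library 1 (0.0762) or wild-type library 3 (0.0531), with 6.2e-06 its lowest.

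Some genes stood apart in the GmZF392 overexpressor from both other overexpressors as well as from the wild type. Over all tested genes, 137 differed from the GmZF351 overexpressor (0.400%) and 364 from the GmNFYA overexpressor (1.06%). GH3, of a family that joins auxin to amino acids, was at 0.736, 0.544 and 0.772 CPM in wild-type seeds and at 4.86, 5.35 and 4.64 CPM in the GmZF392 overexpressor. In the GmZF351 and GmNFYA overexpressors it was at 1.04 ± 0.253 and 1.13 ± 0.294 CPM (SD, n = 3 each), and the direct contrasts gave log2 2.24 (edgeR, adjusted p = 0.00101) and 2.13 (7.0e-04). No other of the 34 tested auxin genes passed against the wild type by edgeR or DESeq2, and at an unadjusted p under 0.05 4 were higher, GH3 included, and 2 lower. BZIP105, a bZIP factor gene, was at 2.8, 2.49 and 1.6 CPM in wild-type seeds and at 10.4, 7.79 and 8.8 CPM in the GmZF392 overexpressor. The contrasts with the GmZF351 and GmNFYA overexpressors were log2 2.12 (adjusted p = 0.00189) and 2.37 (4.6e-04). PRP, a proline-rich cell wall protein gene, was at 1.91, 3.13 and 2.43 against 10.2, 10.1 and 12 CPM, with direct contrasts of log2 1.33 (adjusted p = 0.00771) and 2.03 (1.4e-04). LBD30, of the lateral organ boundaries family, was at 1.37, 1.45 and 0.497 against 7.83, 6.36 and 5.68 CPM. It differed from the GmNFYA overexpressor (log2 3.27, adjusted p = 2.5e-04), while the contrast with the GmZF351 overexpressor narrowly missed the threshold (log2 1.59, adjusted p = 0.0501).

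Storage genes differed from the other overexpressors in some cases only. GY4 was higher than in the GmZF351 overexpressor (log2 1.82, adjusted p = 2.9e-04) and than in the GmNFYA overexpressor (log2 1.13, adjusted p = 0.0041). KTI1 was higher than in the GmZF351 overexpressor (log2 1.52, adjusted p = 0.0058), with log2 0.29 and adjusted p = 0.701 against the GmNFYA overexpressor. GY2 was higher than in the GmNFYA overexpressor (log2 0.84, adjusted p = 0.0158), as were FAD2-1A (log2 1.22, adjusted p = 0.00108), P34 (log2 1.03, adjusted p = 0.00412) and Glyma.10G028300 (log2 0.75, adjusted p = 0.0101). For CG-1 the contrasts were log2 0.42 (adjusted p = 0.322) and 0.41 (0.246), and for LE1 0.44 (0.412) and 0.46 (0.284), and neither gene passed. SWEET16 was lower than in the GmNFYA overexpressor (log2 -1.62, adjusted p = 1.4e-04), where it was at 15.3 ± 0.881 CPM (SD, n = 3), near the wild type.

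Most of the genes that differed have no symbol, as holds for all but 1691 of the 34252 tested genes. Of the 752, 87.4% had none, and 646 were known by a Glyma identifier alone. Among the 1691 tested genes with a symbol 5.62% passed, against 646 of the 32375 known by the identifier alone. The 3813 tested genes that could not be paired with any RefSeq gene gave 69 higher and 25 lower (2.47%), and their median absolute log2 change, 2.15 among those that passed, was above the 1.24 of genes with a symbol. All but 1 of the 53 changes of log2 5 or more in size belonged to genes with no symbol, 29 higher and 23 lower, the exception being CRK48, a receptor-like kinase gene. Nearly all tested genes lack a symbol too, so these counts describe the annotation as well as the change. No role is given to these identifiers by the tables used here.

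By level, the unnamed genes with the largest gains included Glyma.08G341000, which was at 1017, 1109 and 1061 CPM in wild-type seeds and at 1742, 1804 and 2142 CPM in the overexpressor (log2 0.84, SE 0.15, adjusted p = 0.00698). Glyma.09G178100 moved from 1123, 1161 and 1134 to 1959, 1772 and 2052 CPM (log2 0.76, SE 0.14, adjusted p = 0.00705). Glyma.13G035200 moved from 240, 313 and 267 to 1212, 877 and 1134 CPM (log2 1.97, SE 0.22, adjusted p = 1.8e-04). In difference of mean CPM these 3 genes gained more than any globulin gene that rose except CG-1. Glyma.10G193900 moved from 75.9, 127 and 122 to 459, 408 and 436 CPM, 4.01-fold higher (adjusted p = 1.2e-04). Each of these rising genes also rose in the GmZF351 overexpressor (edgeR, adjusted p from 4.2e-05 to 0.0241), where Glyma.09G178100 was at 3014 CPM. In the GmNFYA overexpressor Glyma.13G035200 and Glyma.10G193900 passed (edgeR, adjusted p = 1.4e-04 and 0.0431). Glyma.08G341000 and Glyma.09G178100 did not (0.0687 and 0.0977). The steepest fall of an abundant gene was in Glyma.16G206100 (chromosome 16, 36874844 to 36875842, minus strand). It was at 153, 136 and 127 CPM in wild-type seeds and at 4.91, 4.77 and 9.62 CPM in the overexpressor, 21.5-fold lower (log2 -4.43, SE 0.29, adjusted p = 1.7e-06). Against the same wild-type libraries it also fell in the GmZF351 and GmNFYA overexpressors (log2 -4.02 and -4.76, edgeR adjusted p = 4.3e-06 and 1.2e-06). Glyma.18G232700 moved from 119, 97.4 and 79.2 to 29.6, 21.3 and 39.9 CPM, 3.26-fold lower (adjusted p = 0.00371). It fell in the GmZF351 and GmNFYA overexpressors too (log2 -1.49 and -2.02, edgeR adjusted p = 0.0115 and 0.00154).

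A set of genes was present in one genotype and near absent in the other. Taking a gene as on at 1 CPM or more in every library and off at 3 counts or fewer over the 3 libraries, 19 genes were on in the overexpressor and off in the wild type. Another 11 were on in the wild type and off in the overexpressor, and all 30 passed the test. The call of Glyma.13G027600, on in the overexpressor (adjusted p = 0.0363), ended with no low-count filter (0.177), with exon-length offsets (0.114), without overexpressor library 1 (0.113) or 2 (0.093) and without wild-type library 1 (0.107), 2 (0.124) or 3 (0.114), with 3.1e-06 its lowest, by DESeq2. The definition needs a large difference, so that count is a description. Of the 19, 6 were also on in both other overexpressors, 6 were off in both and 7 were mixed or between the limits. Of the 11, 7 were off in both other overexpressors, 4 were mixed or between and none was on in both. Genes between the limits can be shared changes, such as CRK62 (log2 4.37 and 4.41 against the wild type in the GmZF351 and GmNFYA overexpressors). Glyma.08G126700, which fell, was at 0.0707 and 0.103 CPM there. In the same class, Glyma.06G031000 was at 0 and 0.0682 CPM and Glyma.09G000651 at 0.33 and 1.78 CPM. The 3 comparisons share the wild-type libraries. Of the 30 genes, 6 lie on chromosome 13 and 6 on chromosome 18, which hold 2380 and 1682 of the 34252 tested genes.

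Among genes on in all 3 overexpressors, Glyma.08G273000 (chromosome 8, 35178545 to 35185784, plus strand) had no count in any wild-type library and stood at 6.64, 6.2 and 7.32 CPM in the GmZF392 overexpressor. Against a floor of 3 counts over the wild-type group it was at least 136-fold higher (adjusted p = 9.2e-07). Its levels in the GmZF351 and GmNFYA overexpressors were 6.03 and 6.09 CPM. Glyma.08G261500 had 1 wild-type count in all and stood at 15.2, 14.1 and 22 CPM in the GmZF392 overexpressor. That is a ratio of 1030, with an exact 95% counting interval from 184 to 40723. Glyma.16G211400, with an exon length of 8022 bases, also had 1 wild-type count and stood at 13.9, 15 and 12.2 CPM. Glyma.13G027800, which was not off in the wild type (61 counts over its libraries), moved from 1.23, 0.634 and 1.21 to 58, 62 and 59.4 CPM (log2 5.87, SE 0.24, adjusted p = 3.9e-08) and was at 53.3 and 50.5 CPM in the GmZF351 and GmNFYA overexpressors. It was chosen after its values were seen.

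Other genes were on in the GmZF392 overexpressor and near 0 everywhere else. Glyma.14G171100 (chromosome 14, 43232539 to 43240941, minus strand) had no wild-type count and stood at 5.15, 5.99 and 5.25 CPM, at least 110-fold higher (adjusted p = 6.1e-06). It was at 0.0518 and 0.0511 CPM in the GmZF351 and GmNFYA overexpressors, and differed from both (edgeR, adjusted p = 6.6e-05 and 1.5e-05). Glyma.14G073300 (chromosome 14, 6053807 to 6057787, plus strand) had no wild-type count and stood at 5, 5.46 and 8.91 CPM, at least 129-fold higher (adjusted p = 9.5e-05). Its neighbour on the opposite strand, Glyma.14G073200, was expressed in the wild type at 5.1, 4.98 and 4.41 CPM and rose to 16.1, 20.1 and 27.2 CPM (log2 2.12, SE 0.28, adjusted p = 6.7e-04). That neighbour stood at 4.07 and 3.37 CPM in the GmZF351 and GmNFYA overexpressors and differed from both (edgeR, adjusted p = 0.00104 and 2.5e-04). Another adjacent pair of this kind lies on chromosome 6. Glyma.06G031000 (2412257 to 2413612) was at 7.04, 6.25 and 9.51 CPM and Glyma.06G031100 (2416286 to 2417503) at 4.26, 3.6 and 7.98 CPM, each with 1 count over the wild-type libraries. Glyma.06G031000 differed from the GmZF351 and GmNFYA overexpressors (edgeR, adjusted p = 2.1e-05 and 1.1e-05), as did Glyma.06G031100 (0.00105 and 5.3e-04). Glyma.14G073200 and Glyma.06G031100 were chosen after their values were seen.

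In the other direction, Glyma.03G068900 (chromosome 3, 14322911 to 14324969, minus strand) was at 23.5, 20 and 15.8 CPM in the wild type and had no count in any of the 9 overexpressor libraries. It was at least 381-fold lower in the GmZF392 overexpressor (adjusted p = 2.8e-05). The next tested gene, Glyma.03G069100, fell from 2.6, 2.63 and 2.43 to 0.545, 0.318 and 0.219 CPM (log2 -2.79, SE 0.56, adjusted p = 0.015), and was chosen after its values were seen. Glyma.03G067100, also on chromosome 3 (15144577 to 15149095), fell from 13.6, 14.1 and 16 to 0, 0 and 0.219 CPM (log2 -7.58, SE 0.57, adjusted p = 5.1e-06). Glyma.08G126700 was at 6.52, 5.75 and 6.4 CPM in the wild type with no count in the overexpressor, at least 119-fold lower (adjusted p = 4.9e-05). Glyma.03G067100 and Glyma.08G126700 also fell in the GmZF351 and GmNFYA overexpressors against the same wild-type libraries. For Glyma.03G067100 the changes were log2 -7.56 and -7.98 (edgeR, adjusted p = 7.5e-06 and 5.3e-06). For Glyma.08G126700 they were log2 -6.33 and -5.84 (edgeR, adjusted p = 1.4e-04 and 1.5e-04). Glyma.09G158600 and Glyma.09G158700 are neighbours on chromosome 9 that were chosen after their values were seen. Glyma.09G158600 fell from 15, 23.4 and 18 to 0.595, 0.53 and 0.273 CPM (log2 -5.31, SE 0.56, adjusted p = 9.5e-05). It also fell in the GmZF351 overexpressor, to 1.69 CPM (log2 -3.53, adjusted p = 0.00102), a comparison that shares the wild-type libraries. In the GmNFYA overexpressor it was at 45 CPM, from which the GmZF392 overexpressor differed by log2 -6.56 (edgeR, adjusted p = 2.2e-05). Glyma.09G158700 fell by 2.93 on the log2 scale, with log2 -3.36 (edgeR, adjusted p = 0.00222) in the GmZF351 overexpressor, and was lower than in the GmNFYA overexpressor by log2 -3.72 (edgeR, adjusted p = 9.3e-04).

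**Figure D4:**
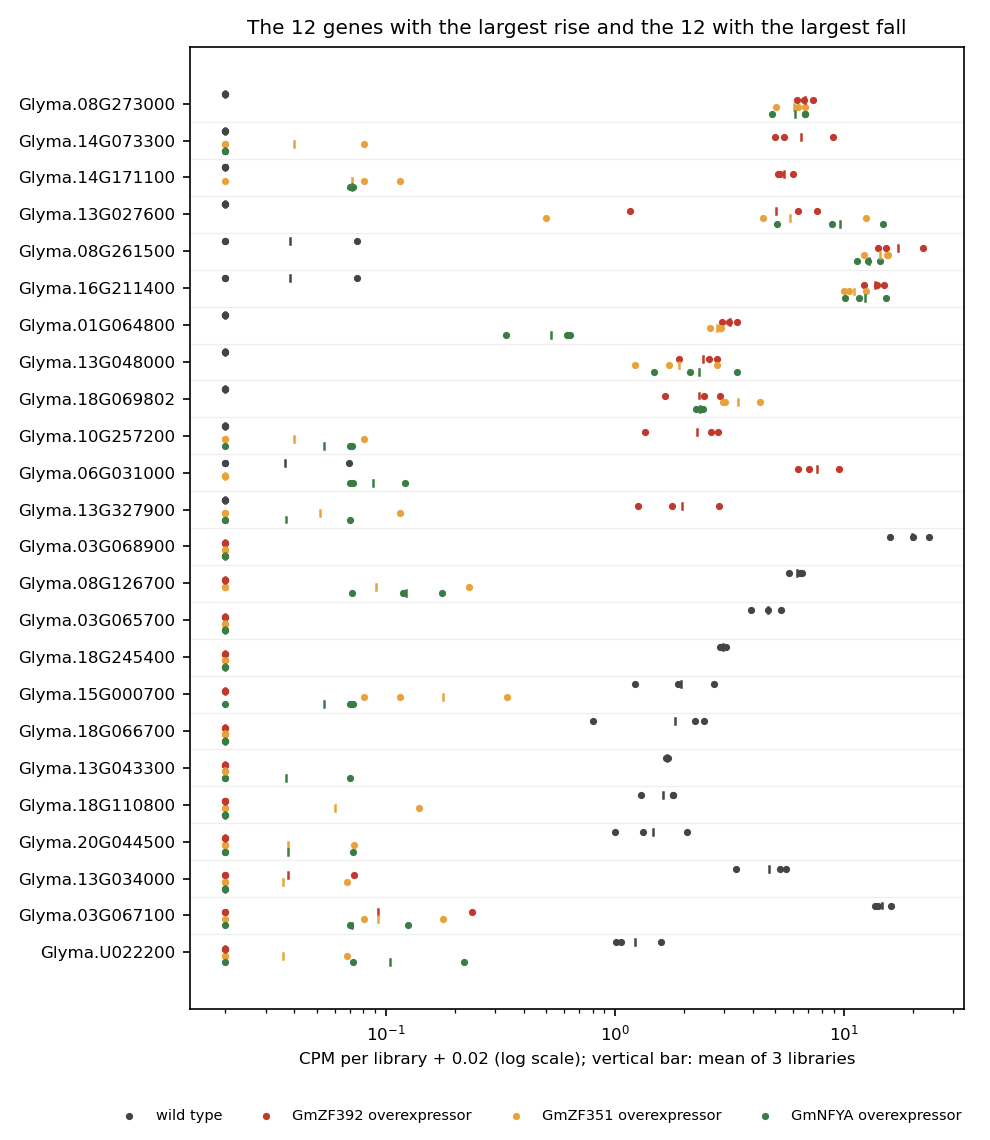
CPM in each library (points, log scale, with a small constant added) of the rising and falling genes with the largest changes, in the 4 genotypes, with a vertical bar at each mean of 3 libraries. Glyma.14G073300 and Glyma.14G171100 are high in the GmZF392 overexpressor alone among the 4, while Glyma.08G273000 and Glyma.03G068900 have all 3 overexpressors on the same side of the wild type.

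Neighbouring genes passed in the same direction at 33 places, 2 of them runs of 3 genes and 31 of 2. Neighbours here are tested genes that follow each other on a chromosome, at whatever distance. How many such places unlinked changes would give was not tested. The run on chromosome 13 (20026882 to 20038220) holds Glyma.13G094900, Glyma.13G095000 and Glyma.13G095200, all on the minus strand. Glyma.13G094900 moved from 2.89, 5.16 and 4.19 to 27.3, 26.2 and 27.2 CPM (log2 2.71, SE 0.20, adjusted p = 3.9e-06). Glyma.13G095000 moved from 0.343, 0.906 and 1.43 to 20.6, 25.9 and 17 CPM, 23.8-fold higher (log2 4.57, SE 0.39, adjusted p = 1.4e-05). Both were also higher than in the GmZF351 overexpressor (edgeR, adjusted p = 3.9e-04 and 9.2e-05) and the GmNFYA overexpressor (0.0108 and 0.00155). Glyma.13G095200 moved from 4.71, 4.17 and 3.92 to 11, 7.74 and 9.89 CPM (log2 1.16, SE 0.19, adjusted p = 0.00354), and was at 14.4 CPM in the GmNFYA overexpressor. Neighbours that resemble each other can share fragments, so a joint change of such genes is less certain than its counts show. The run on chromosome 18 (6371118 to 6507566) holds Glyma.18G068800, which moved from 12.1, 13.6 and 14 to 33.8, 38.4 and 27 CPM (adjusted p = 6.1e-04), with Glyma.18G069300 and Glyma.18G069802. The last had no wild-type count and stood at 2.87, 2.44 and 1.64 CPM, at least 47.2-fold higher (adjusted p = 2.4e-05). All 3 genes of this run also rose in the GmZF351 and GmNFYA overexpressors against the same wild-type libraries (edgeR, adjusted p from 1.5e-05 to 0.0109).

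Across the genome the genes that differed were spread over all 20 chromosomes. The share that passed was 3.80% on chromosome 18 and 3.15% on chromosome 13, against 2.20% overall and 1.35% on chromosome 19, where as many fell as rose (11 each). Of 661 windows of 1 Mb with at least 10 tested genes, 290 held no gene that passed. The window with the highest share lay at 14 to 15 Mb on chromosome 3, where 3 of 11 tested genes fell (27.3%), Glyma.03G068300, Glyma.03G068900 and Glyma.03G069100. No test of clustering was made.

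**Figure D5:**
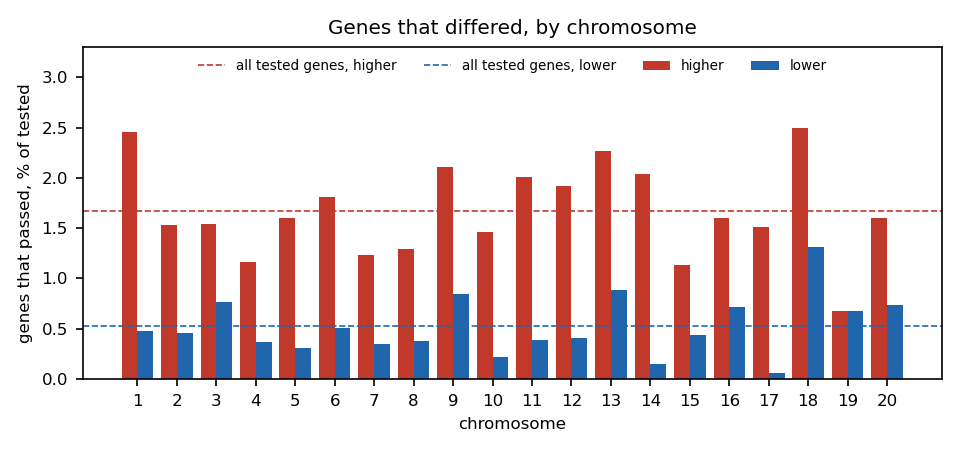
Share of tested genes that rose or fell on each of the 20 chromosomes, in percent, with dashed lines at the shares over all tested genes (1.67% higher and 0.528% lower). Chromosome 18 has the tallest pair of bars, at 2.50% higher and 1.31% lower.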

How the data were processed

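Seed RNA was measured in 12 libraries of 4 genotypes. The values are raw fragment counts per gene that the authors deposited, made with featureCounts 2.0.1 per the file headers, with exons summed by gene on the annotation Gmax_508_Wm82.a4.v1, and no strand or multimapping option is recorded. HISAT2 and DESeq2 appear, with no version, in the submitters' processing notes. Exon length came from the same table.

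Counts of all 12 libraries were fitted together in edgeR 4.0.16 (R 4.3.3, limma 3.58.1) with TMM scaling and a minimum count of 10 and minimum total of 15, and tested with the robust quasi-likelihood F-test, Benjamini-Hochberg adjusted over 34252 genes. DESeq2 1.42.0, other scalings, filters and left-out libraries were alternatives. On simulated counts with 200 changed genes of 33887, 62 of 100 changed 2-fold and 94 of 100 changed 4-fold were called, with 11 unchanged genes among 167 calls. A count of 3 in a library equals 0.136 to 0.181 CPM. Intervals and floors cover counting error only. Replicate libraries differed by more than sampling noise (chi-square per degree of freedom 2.26 to 42.08), so none was merged.

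RefSeq symbols (Glycine_max_v4.0) were assigned by a span overlap of at least 50% of the union. This paired 38292 genes (81.3%), and 2203 have a symbol. Positions are those of the deposited table. Apart from genes marked as chosen after their values were seen, and list members given as not passing, named genes come from a rule. They passed the test, did not overlap between genotypes and reached 1 CPM in the higher genotype. The 12 rising and 12 falling with the largest fold, 10 and 10 with a symbol, 8 and 8 by difference in CPM, up to 6 per gene list, and the longest runs of neighbours were eligible. The 26 lists are symbol patterns, from which symbols caught by accident were removed after the table was seen. The comparison, the members and the lists were chosen with earlier results of these data known. Protein matches and promoter sequences were not analysed here.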

Additional observations from a re-analysis of the deposited data

How the results depend on the processing

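The rise of GmZF392 (log2 3.20) passed in every alternative run. The count of 752 genes moved to 1188 with exon-length offsets (865 higher, 323 lower) and to 1194 with the DESeq2 Wald test, 365 of them lower, and the cause was not tested. Leaving out 1 of the 6 libraries gave 448 to 606 genes, with 360 to 452 higher and 88 to 154 lower. The lower count was 105 or 92 without overexpressor library 1 or 2 and 88 or 102 without wild-type library 2 or 3. The share of calls that were higher was 75.9%, and ran from 69.4% (DESeq2) to 82.1% (without overexpressor library 2). Of the 98 named genes that passed, 77 kept their call in all alternatives where they were tested, 21 lost it in at least 1, and no value changed sign. Replicate numbers do not mark a shared batch in the labels, and same-numbered libraries did not deviate together (correlations -0.128, -0.248 and -0.259). With the replicate number as a block 659 genes passed, and the count of oil assembly and oil body genes that rose was 2. Scaling by DESeq2 size factors gave 752 genes, by upper quartile 725, no filter 748, a minimum count of 50 628, and the 6 libraries alone 687. At unadjusted p under 0.05, 4044 genes differed. Depth limits genes near the floor of 0.0495 CPM over the wild-type group and 0.0523 CPM over the overexpressor group.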

Other observations

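Receptor-like kinase genes of the CRK family, named for cysteine-rich repeats, included 2 of the 3 genes with a symbol that rose by the highest fitted fold, GY4 being the other. CRK48 had 2 counts over the wild-type libraries and stood at 1.64, 1.17 and 1.69 CPM in the GmZF392 overexpressor, a ratio of 45.4 with an exact 95% counting interval from 12.2 to 381. CRK62 stood at 1.14, 1.22 and 1.04 CPM, a ratio of 22.9 with an interval from 7.49 to 114. Both are low, and both were at a like level in the GmZF351 (1.31 and 1.15 CPM) and GmNFYA (0.992 and 1.19 CPM) overexpressors. CYP707A1A, for an abscisic acid hydroxylase, rose from 0.112 ± 0.0641 to 0.944 ± 0.203 CPM (SD, n = 3, edgeR adjusted p = 0.00415), below the 1 CPM of the naming rule. Glyma.12G149100, whose RefSeq synonym is NAC085, lies outside the NAC list. It rose from 0.147, 0.136 and 0.0552 to 1.44, 1.96 and 1.86 CPM and was higher than in the GmNFYA overexpressor (log2 4.26, edgeR adjusted p = 4.7e-04). Glyma.15G098100, with the synonym BMY1, a beta-amylase, rose from 25.5, 25.4 and 25 to 49.7, 42.5 and 47.3 CPM (edgeR, adjusted p = 5.1e-04). CYP707A1A and these last 2 were chosen after their values were seen.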
